A study of Mus musculus with 26 samples.

Results

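The genes of oxidative phosphorylation encode the 5 protein complexes of the inner mitochondrial membrane that carry electrons from nutrients to oxygen and make ATP. They were taken by symbol, as the subunit genes that begin with Ndufa, Ndufb, Ndufc, Ndufs or Ndufv and a digit, the 4 Sdh genes, and those that begin with Uqcr, Cox4 to Cox8, Atp5, mt-Nd, mt-Co, mt-Cyt or mt-Atp, without pseudogenes and assembly factors. This gave 101 of the 48795 genes in the count table, 88 of them nuclear and 13 on the mitochondrial genome (mt-encoded). The rule used no measured value, but the genes were chosen with earlier results of these data known. RNA was sequenced from 24 libraries of myeloid progenitor cells of C57BL/6 mice, transformed in culture by MN1 or by Hoxa9 together with Meis1 (H9M), with 3 libraries in each of 8 groups: MN1 KO + ATRA, MN1 KO W/O ATRA, MN1 CTL + ATRA, MN1 CTL W/O ATRA, H9M KO + ATRA, H9M KO W/O ATRA, H9M CTL + ATRA and H9M CTL W/O ATRA. KO is the knockout of the histone demethylase LSD1, encoded by Kdm1a, and ATRA is all-trans retinoic acid, a differentiating agent in myeloid leukaemia, given at 1 µM. All cells grew with the cytokines IL3, IL6 and SCF, and the strain field names CreERT2-;LSD1TM1Schuele for every library, KO and CTL alike. 4-hydroxy-tamoxifen (0.1 µM for 72 h) is listed for the KO libraries only, so KO and exposure to this drug cannot be told apart. The histone mark H3K4me2, found at promoters that are active or poised, was read in lineage-negative bone marrow cells in 1 GFI-KD and 1 GFI1-WT library, and the labels do not say how the GFI-KD was made.

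Complex I (NADH dehydrogenase), complex III (cytochrome c reductase), complex IV (cytochrome c oxidase) and complex V (ATP synthase) are built from subunits of both genomes, while complex II (succinate dehydrogenase) is entirely nuclear. The mt-encoded subunits are made from long transcripts of the mitochondrial genome that are cut into separate RNAs, and the nuclear subunits are imported from the cytosol. Nuclear subunit genes are known as targets of NRF1, of ETS family factors such as GABPA, and of YY1, under coactivators of the PGC-1 family. Whether nuclear and mt-encoded subunits move together across the 8 groups is the comparison made here.

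Library totals ran from 22402558 to 32674685 counts, and of the 101 genes 94 passed the filter on low counts, 81 nuclear and all 13 mt-encoded. The 7 that did not pass were Ndufa11b, Ndufb4c, Ndufs6b, Ndufa4l2, Cox7b2, Cox8b and Cox8c. Kdm1a was at 2.22, 1.85 and 2.36 CPM (counts scaled to a common library total) in MN1 KO + ATRA and 1.41, 1.28 and 1.58 CPM in MN1 KO W/O ATRA, against 203, 192 and 196 CPM in MN1 CTL + ATRA and 187, 193 and 192 CPM in MN1 CTL W/O ATRA. It was at 11.5, 10.3 and 11.5 CPM in H9M KO + ATRA and 0.937, 0.998 and 0.952 CPM in H9M KO W/O ATRA, against 147, 145 and 150.2 CPM in H9M CTL + ATRA and 138, 139.9 and 139 CPM in H9M CTL W/O ATRA. All KO libraries lay far below their controls, and H9M KO + ATRA kept more Kdm1a than the other KO groups. All 10 myeloid progenitor markers reached 1 CPM, and their sum was higher in KO than in CTL without overlap in all 4 pairs. It was 5979 to 6086 CPM in MN1 KO + ATRA, against 3777 to 3844 CPM in MN1 CTL + ATRA, and 6899 to 6996 CPM in MN1 KO W/O ATRA, against 4530.1 to 4673 CPM in MN1 CTL W/O ATRA. In H9M it was 12151 to 12758 CPM in KO + ATRA, against 7987 to 8293 CPM in CTL + ATRA, and 16498 to 16665 CPM in KO W/O ATRA, against 13518 to 13930.1 CPM in CTL W/O ATRA. In H9M KO + ATRA most of it came from Mpo, Prtn3, Ctsg and Elane, with means of 4927, 2211, 1706 and 1371 CPM. The other markers had means of 153 CPM (Kit) to 850 CPM (Cd34) there. The sum therefore does not show that each marker was higher in KO. Erythroid markers summed to at most 6.35 CPM, B cell markers to at most 0.807 CPM and muscle markers to at most 1.18 CPM, with Ms4a1 and Mb at 0 in every library. T and NK cell markers summed to 28.7 to 34.9 CPM in the MN1 KO libraries, against 4.34 to 7.396 CPM in the MN1 CTL libraries, nearly all of it Nkg7, with Cd3g at 0 in every library. Stromal and endothelial markers summed to 393 to 900.5 CPM, nearly all of it Pecam1, with Col3a1 and Cdh5 at 0. The part of the myeloid marker, Nkg7 and Kdm1a differences in the results below was not tested. A tag in the library codes is the same within a model and differs between MN1 and H9M, and its meaning is not stated. Differences in level between the models and between tags therefore cannot be told apart. Whether the 3 libraries of a group came from separate cultures is not stated, so p-values measure only the spread between these libraries, which may be technical.

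With ATRA, nuclear and mt-encoded transcripts went opposite ways in the LSD1 knockout. Summed over the 88 nuclear genes, the share of all counts was lower in KO than in CTL without overlap in all 4 comparisons, while the mt-encoded share was higher in KO with ATRA. The nuclear sum took 1.24, 1.28 and 1.28% of counts in MN1 KO + ATRA, against 1.39, 1.38 and 1.42% in MN1 CTL + ATRA. Without ATRA it took 1.28, 1.30 and 1.30% in MN1 KO, against 1.44, 1.45 and 1.45% in MN1 CTL. In H9M it took 1.15, 1.095 and 1.12% in KO + ATRA, against 1.21, 1.27 and 1.198% in CTL + ATRA. The H9M values without ATRA were 1.19, 1.17 and 1.198% in KO, against 1.24, 1.28 and 1.28% in CTL. In all 4 pairs the highest KO library lay below the lowest CTL library. The mt-encoded sum took 0.825, 0.842 and 0.802% of counts in MN1 KO + ATRA, against 0.553, 0.540 and 0.673% in MN1 CTL + ATRA. It took 0.788, 0.598 and 0.925% in H9M KO + ATRA, against 0.550, 0.407 and 0.473% in H9M CTL + ATRA. With ATRA, every KO library of a model lay above every CTL library of that model. Without ATRA the groups overlapped, with 0.674, 0.850 and 0.781% in MN1 KO against 0.780, 0.599 and 0.581% in MN1 CTL, and with 0.814, 0.499 and 0.791% in H9M KO against 0.699, 0.562 and 0.495% in H9M CTL. The ratio of the mt-encoded to the nuclear sum was 0.627 to 0.666 in MN1 KO + ATRA against 0.391 to 0.474 in MN1 CTL + ATRA, and 0.546 to 0.826 in H9M KO + ATRA against 0.320 to 0.453 in H9M CTL + ATRA. In these bulk libraries fewer cells of a type and less RNA per cell cannot be told apart.

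**Figure D1:**
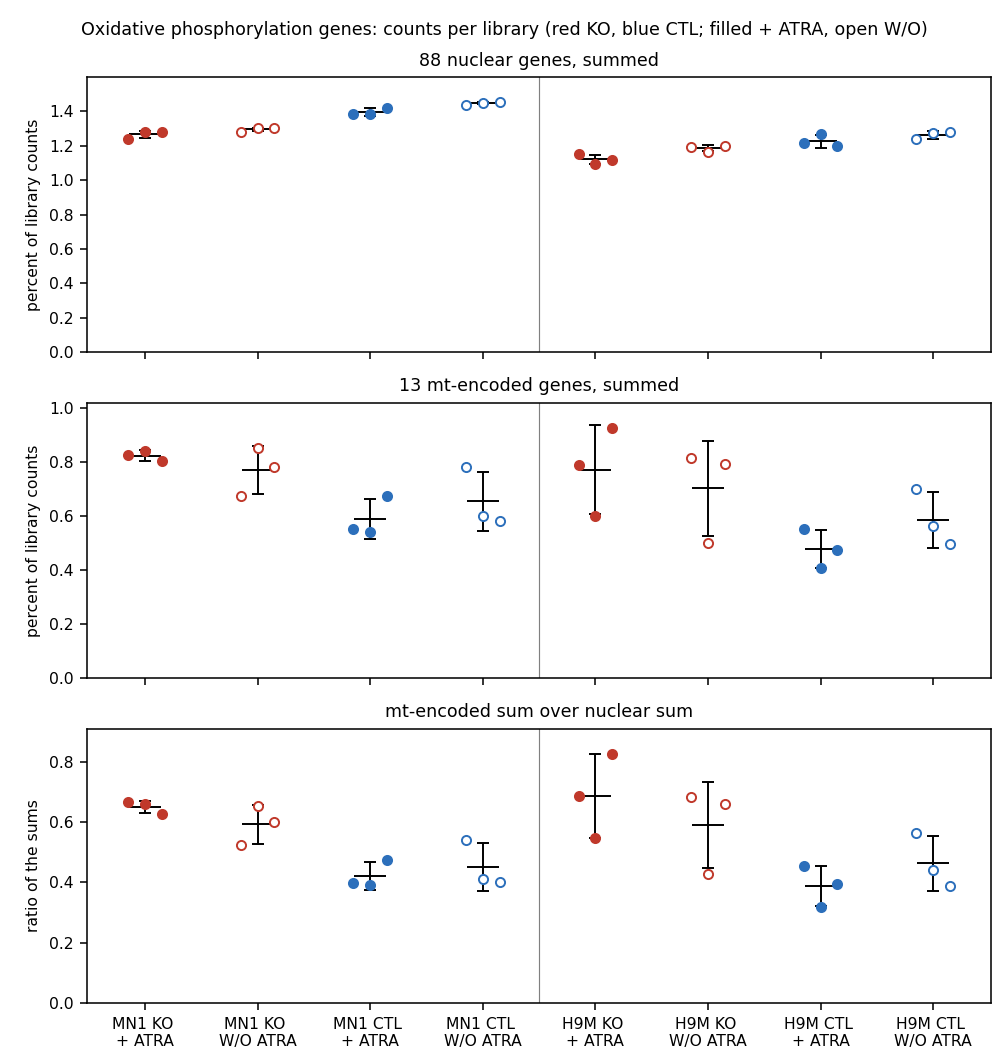
Share of library counts of the summed nuclear genes (top), of the summed mt-encoded genes (middle), and the ratio of the mt-encoded to the nuclear sum (bottom), 1 point per library, with group mean and SD (n = 3) as bar and whiskers. Nuclear shares in KO lie below those in CTL in every pair of groups, and mt-encoded shares in KO + ATRA lie above those in CTL + ATRA in both models.

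Gene by gene, the nuclear decrease was broad and small. In edgeR's quasi-likelihood test with Benjamini-Hochberg adjustment over 14663 genes, 53 of 81 nuclear genes fell and 7 rose in MN1 KO with ATRA, where 28.6% of all genes were called lower and 28.6% higher. In MN1 KO without ATRA, 54 fell and 5 rose, where 26.3% of all genes were called lower and 28.7% higher. In H9M KO with ATRA, 41 fell and 7 rose, where 24.4% were called lower and 26.7% higher; 26 fell without H9M CTL + ATRA library 2. In H9M KO without ATRA, 23 fell and 10 rose, where 25.4% were called lower and 26.1% higher. The shares of nuclear genes that fell were 65.4% and 66.7% in MN1 with and without ATRA and 50.6% in H9M with ATRA, above the shares of all genes, and 28.4% in H9M without ATRA, near the share of all genes. The median log2 fold change of the nuclear genes was -0.15 and -0.16 in MN1 with and without ATRA, and -0.11 and -0.06 in H9M with and without ATRA, beside medians over all genes of 0 to 0.01. A change of -0.16 is a level 10.5% lower. The 4 comparisons share no library, and 17 of 81 nuclear genes (21.0%) fell in each of them, where 12.5% of all genes did. They were Ndufa9, Ndufb8, Ndufs1, Ndufs7, Ndufs8, Ndufv1 and Ndufv3 of complex I, Sdhd of complex II, Uqcr11, Uqcrc1, Uqcrc2 and Uqcrh of complex III, Cox6b1 and Cox7a1 of complex IV, and Atp5a1, Atp5b and Atp5g1 of complex V. Only 4 (4.94%) rose in each, Ndufa3, Ndufb11, Ndufs4 and Cox4i2, where 13.6% of all genes did. Another 4 were called both ways in different comparisons, Ndufa8, Ndufb9, Sdhb and Atp5f1, and 8 in none, Ndufa2, Ndufa4, Ndufa13, Ndufb2, Ndufc2, Cox6c2, Atp5e and Atp5g2.

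**Figure D2:**
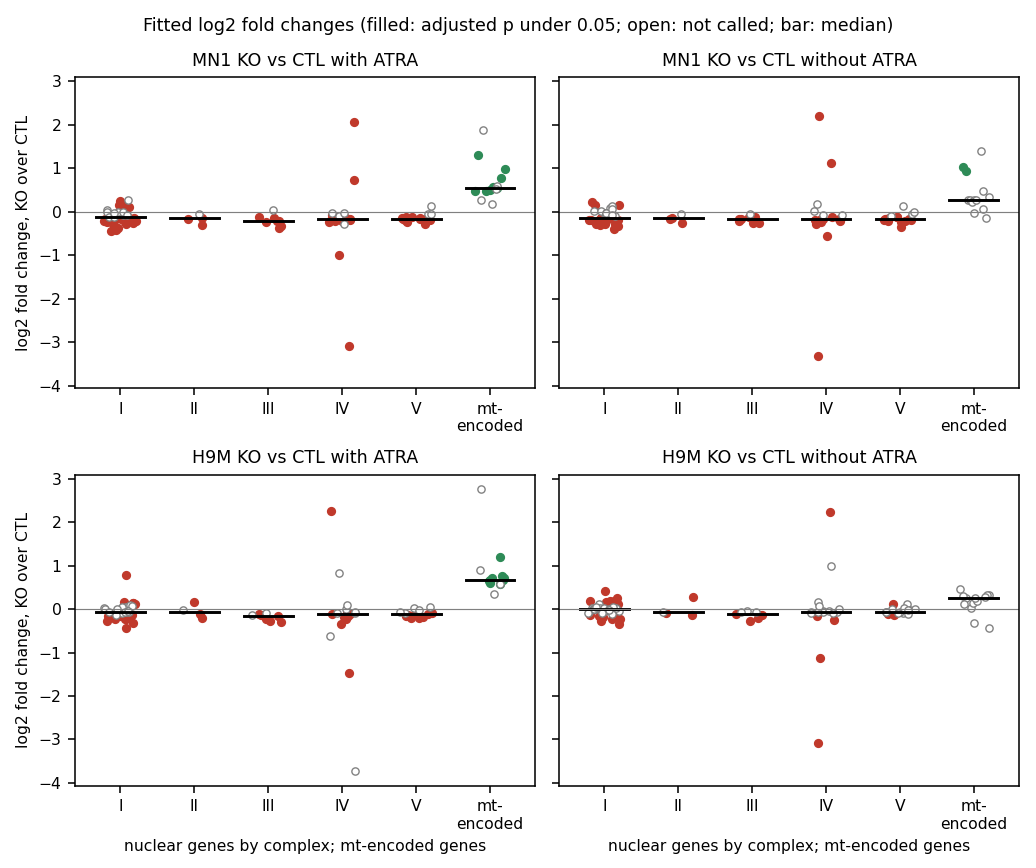
Fitted log2 fold change, KO over CTL, of each tested gene with a known complex, by complex, with mt-encoded genes at the right of each panel and medians as bars (the vertical axis is log2, filled points have an adjusted p under 0.05). Nuclear medians sit at or just below 0 in each complex and panel, and the mt-encoded median sits above 0 in each panel. The points far from the rest in complex IV are tissue isoforms, at low counts except for Cox4i2 and Cox6b2 in MN1 KO.

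Promoters were read to show what these nuclear genes share in sequence. RefSeq's promoter table (GRCm38.p6, 250 bases before to 50 after a gene's start) held 68 of the 88 nuclear genes. The NRF1 motif, searched on both strands like the others and shown in capitals in the promoters printed here, was in 17 of 68 (25%), against 5.19% of the 27025 genes in the table. The YY1 motif, likewise shown, was in 5 (7.35%), against 0.995%, and the ETS motif CCGGAAGT in 5 (7.35%), against 4.31%. The SP1 motif GGGCGGG was in 24 (35.3%), against 27.9%, and the E-box CACGTG in 6 (8.82%), against 8.09%. Among the 17 genes with the NRF1 letters, 12 fell in MN1 KO with ATRA, 12 in MN1 KO without, 8 in H9M KO with ATRA and 4 in H9M KO without, while 1 (Ndufa8) rose in each H9M comparison. The shares that fell were 70.6%, 70.6%, 47.1% and 23.5%, near those of all tested nuclear genes (65.4%, 66.7%, 50.6% and 28.4%), so the counts say nothing particular to the genes with these letters. A match is a description of the letters and not of a bound site. The promoters of 4 genes whose changes are described below are printed: Ndufa8 (chr2:36049289-36049588, minus strand), which rose in H9M and fell in MN1, Uqcrc1 (chr9:108936398-108936697, plus strand), Ndufs7 (chr10:80249199-80249498, plus strand) and Atp5g3 (chr2:73911277-73911576, minus strand), of which Uqcrc1 and Ndufs7 fell in all 4 comparisons and Atp5g3 in MN1. All 4 hold a match and do not stand for the changed genes at large. The promoters of Sdhb, Cox7a2l and Ndufv3, also described below, hold no NRF1, YY1 or ETS match. Capitals mark the NRF1 letters in Ndufa8, Uqcrc1 (2 matches) and Atp5g3, and the YY1 letters in Ndufs7.
Ndufa8: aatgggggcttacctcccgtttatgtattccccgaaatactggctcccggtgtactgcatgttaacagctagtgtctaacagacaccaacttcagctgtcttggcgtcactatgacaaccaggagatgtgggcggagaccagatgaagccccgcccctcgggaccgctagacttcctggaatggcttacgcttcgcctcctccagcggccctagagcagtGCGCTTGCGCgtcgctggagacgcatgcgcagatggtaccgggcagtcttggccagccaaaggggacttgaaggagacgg
Uqcrc1: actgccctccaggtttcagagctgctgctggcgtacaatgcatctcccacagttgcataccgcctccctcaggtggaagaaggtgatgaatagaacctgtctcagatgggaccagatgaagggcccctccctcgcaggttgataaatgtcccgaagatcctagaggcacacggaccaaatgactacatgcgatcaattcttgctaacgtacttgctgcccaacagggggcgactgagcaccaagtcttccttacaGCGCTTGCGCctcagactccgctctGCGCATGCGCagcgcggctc
Atp5g3: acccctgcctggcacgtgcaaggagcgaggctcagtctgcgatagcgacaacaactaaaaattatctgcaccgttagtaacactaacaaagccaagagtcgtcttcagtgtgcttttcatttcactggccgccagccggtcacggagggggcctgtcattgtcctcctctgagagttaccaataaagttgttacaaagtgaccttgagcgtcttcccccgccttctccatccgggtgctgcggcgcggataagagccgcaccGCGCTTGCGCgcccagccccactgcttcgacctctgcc
Ndufs7: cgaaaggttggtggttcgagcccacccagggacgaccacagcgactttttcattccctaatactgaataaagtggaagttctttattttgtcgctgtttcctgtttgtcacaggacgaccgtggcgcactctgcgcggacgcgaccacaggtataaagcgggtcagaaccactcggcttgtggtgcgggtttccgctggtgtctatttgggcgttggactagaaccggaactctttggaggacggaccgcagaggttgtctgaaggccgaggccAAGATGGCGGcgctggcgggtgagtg

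Most of these promoters held more H3K4me2 reads in bone marrow progenitors than the median gene. Within 1000 bases of the start, the median of the 68 genes was 26.2 RPM (reads scaled to a common depth) in GFI-KD and 28.6 in GFI1-WT, where the median of all 27025 genes was 2.31 and 2.35. Of the 68, 66 lay above the median gene in summed reads of both libraries and 2 below it, Cox7b2 with 0.315 RPM in GFI-KD and 0.112 in GFI1-WT, and Cox8b with 0.105 in GFI-KD and 0.335 in GFI1-WT. Ndufs7 had 27.2 RPM in GFI-KD and 28.05 in GFI1-WT, and Ndufa8 had 24.01 in GFI-KD and 21.8 in GFI1-WT. Atp5g3 had 30.7 in GFI-KD and 34.1 in GFI1-WT, and Uqcrc1 had 20.02 in GFI-KD and 19.8 in GFI1-WT. The 68 promoters together held 16947 reads in GFI-KD and 16925 in GFI1-WT, a log2 ratio of depth-scaled reads of -0.09 (95% Poisson interval -0.12 to -0.06), where all genes gave 0.01. Taken singly, 66 of the 68 had at least 20 reads, with a median log2 ratio of -0.09 (quartiles -0.19 to -0.0091). Over all 14883 genes with as many reads the median was -0.02 (quartiles -0.20 to 0.25). The median of these promoters lies inside the quartiles of single genes, which cannot show whether a set of 68 differs from all genes. The interval of the summed reads does not reach the value of all genes. Within 500 bases the log2 ratio was -0.14, where all genes gave 0.0004. With 1 library each there is no replicate check, and the interval covers counting error only.

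In complex I, the entry point for electrons from NADH, 19 of 35 tested nuclear genes fell and 5 rose in MN1 KO with ATRA, and 21 fell and 3 rose without. In H9M KO, 14 fell and 5 rose with ATRA, and 8 fell and 7 rose without. The shares that fell were 54.3% and 60% in MN1 with and without ATRA and 40% in H9M with ATRA, where 28.6%, 26.3% and 24.4% of all genes fell. In H9M without ATRA 22.9% fell and 20% rose, near or below the 25.4% and 26.1% of all genes, which is no result about the complex. Ndufs7 (ENSMUSG00000020153.14), which carries an iron-sulfur cluster at the quinone end of the electron path, was among the largest decreases in all 4 comparisons. It had 57.7, 62.9 and 61.5 CPM in MN1 KO + ATRA, against 79.7, 81.8 and 79.6 CPM in MN1 CTL + ATRA, a log2 fold change of -0.43 ± 0.04 (SE, adjusted p = 2.52e-10). Without ATRA, MN1 KO had 62.2, 61.1 and 62.4 CPM, against 83.0, 81.03 and 79.7 CPM in MN1 CTL (-0.40 ± 0.04, adjusted p = 1.38e-09). H9M KO + ATRA had 50.002, 47.7 and 50.3 CPM, against 58.9, 62.7 and 62.4 CPM in H9M CTL + ATRA (-0.31 ± 0.04, adjusted p = 3.9e-07). No KO library reached a CTL library in these 3 pairs, and the gene overlaps a tRNA gene, n-TNgtt7. Without ATRA, H9M KO had 56.2, 52.8 and 56.0 CPM, against 65.7, 65.4 and 70.6 CPM in H9M CTL (-0.28 ± 0.04, adjusted p = 2.08e-06), again without overlap. Ndufv3, an accessory subunit of the NADH-binding module, fell, at -0.45 and -0.27 in MN1 with and without ATRA, and at -0.44 and -0.35 in H9M with and without ATRA, as log2 fold changes. Its CPM were 105, 107 and 114 in H9M KO + ATRA, against 142, 154 and 145 in H9M CTL + ATRA. Ndufs1, the largest iron-sulfur subunit, fell, at -0.33 in MN1 KO without ATRA, with 114, 114 and 111 CPM in KO against 137, 139 and 147 CPM in CTL. It overlaps the annotated gene Ino80dos, and the sources used here do not give the strand counted. Ndufb10 fell, at -0.38 in MN1 KO with ATRA, and Ndufb4 at -0.31 in MN1 KO without ATRA, while Ndufb4 in H9M KO without ATRA was at 0.02 and was not called (adjusted p = 0.894).

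A few complex I genes rose, a smaller share than of all genes. The shares that rose were 14.3% and 8.57% in MN1 with and without ATRA and 14.3% in H9M with ATRA. Of all genes, 28.6%, 28.7% and 26.7% rose there. Ndufa3, Ndufb11 and Ndufs4, all accessory subunits, rose in all 4 KO comparisons. Ndufa3 had 53.2, 56.3 and 56.8 CPM in MN1 KO + ATRA, against 43.4, 47.1 and 48.4 CPM in MN1 CTL + ATRA (0.24 ± 0.05, adjusted p = 0.000278). Ndufb11 had 106, 107 and 107 CPM in MN1 KO without ATRA, against 95.2, 96.2 and 92.2 CPM in MN1 CTL (0.17 ± 0.04, adjusted p = 0.00137); it overlaps Rbm10. Ndufs4 had 58.2, 58.7 and 56.99 CPM in H9M KO without ATRA, against 45.2, 50.9 and 50.1 CPM in H9M CTL (0.26 ± 0.05, adjusted p = 6.13e-05). Ndufs3, a core subunit, rose in H9M KO at 0.14 with ATRA and 0.18 without and in MN1 KO at 0.16 with ATRA, and was at 0.07 in MN1 KO without ATRA, not called (adjusted p = 0.0983). Ndufa8 (ENSMUSG00000026895.7), an accessory subunit with twin cysteine motifs, had the largest rise of the complex, and in H9M alone. It had 141, 137 and 145 CPM in H9M KO + ATRA, against 84.5, 83.2 and 79.6 CPM in H9M CTL + ATRA (0.77 ± 0.04, adjusted p = 2.48e-17). Without ATRA it had 107, 107 and 106 CPM in H9M KO, against 78.3, 82.4 and 81.5 CPM in H9M CTL (0.42 ± 0.04, adjusted p = 6.47e-11). In MN1 it fell, with 75.7, 80.02 and 77.5 CPM in KO without ATRA against 87.7, 84.0 and 86.0 CPM in CTL (-0.15 ± 0.04, adjusted p = 0.00118). The levels of the H9M KO libraries lay above all other libraries, and those of H9M KO + ATRA above those of H9M KO W/O ATRA.

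Complex II oxidises succinate and feeds its electrons to ubiquinone. Sdhd, a membrane anchor, fell in all 4 KO comparisons, with log2 fold changes of -0.30 ± 0.03 and -0.26 ± 0.03 in MN1 with and without ATRA, and -0.20 ± 0.03 and -0.15 ± 0.03 in H9M with and without ATRA. Its CPM were 225, 220.4 and 225 in MN1 KO + ATRA, against 267, 268 and 279 in MN1 CTL + ATRA, with no overlap. Sdhb, the iron-sulfur subunit, rose in H9M KO without ATRA, with 118, 116 and 118 CPM in KO against 95.8, 98.2 and 98.3 CPM in CTL (0.28 ± 0.04, adjusted p = 2e-07). It also rose in H9M KO with ATRA (0.17 ± 0.04, adjusted p = 0.000283) and fell in MN1 KO with ATRA (-0.15 ± 0.04, adjusted p = 0.000694). Sdha, the flavoprotein, fell in MN1 and H9M KO without ATRA (-0.16 and -0.09), and was at -0.06 and -0.03 with ATRA, not called (adjusted p = 0.122 and 0.464). Sdhc, the other anchor, fell, at -0.14 and -0.13 in MN1 KO with and without ATRA and at -0.11 in H9M KO with ATRA, where it overlapped between the groups, and was at -0.07 in H9M KO without ATRA, not called (adjusted p = 0.172).

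Complex III passes electrons from ubiquinol to cytochrome c. Of its 8 nuclear genes, 7 fell in MN1 KO with ATRA, 7 in MN1 KO without, 6 in H9M KO with ATRA and 5 in H9M KO without, that is 87.5%, 87.5%, 75% and 62.5%, where 28.6%, 26.3%, 24.4% and 25.4% of all genes fell. Uqcrc1 (ENSMUSG00000025651.14), a core subunit, fell most in H9M without ATRA, where KO had 370.2, 358 and 362 CPM and CTL 439, 443 and 456 CPM (-0.28 ± 0.03, adjusted p = 3.82e-09). In MN1 without ATRA it had 360.5, 344 and 359 CPM in KO and 373, 389 and 390.0 CPM in CTL (-0.12 ± 0.03, adjusted p = 0.0012). The groups did not overlap in either model. Uqcrc2, the other core subunit, which overlaps Pdzd9, fell most in MN1 with ATRA, with 204, 196 and 206 CPM in KO and 264, 253 and 249 CPM in CTL (-0.36 ± 0.03, adjusted p = 1.04e-10). Uqcrh, the hinge protein, which overlaps Gm12854, fell, at -0.29 in H9M KO with ATRA.

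In complex IV, which reduces oxygen to water, most common isoforms fell in MN1 KO while the tissue isoforms Cox4i2 and Cox6b2 rose. Of 17 tested genes, 11 fell and 2 rose in each MN1 KO comparison, 8 fell and 1 rose in H9M KO with ATRA, and 4 fell and 1 rose without. The shares that fell were 64.7% in each MN1 comparison and 47.1% in H9M with ATRA, where 28.6%, 26.3% and 24.4% of all genes fell, and 23.5% in H9M without, near the 25.4% of all genes. Those that rose were 11.8% in each MN1 comparison and 5.88% in each H9M comparison, below the 26.1% to 28.7% of all genes. Cox4i1, the ubiquitous isoform of subunit 4, had 314, 342 and 346 CPM in MN1 KO + ATRA, against 379.5, 380.5 and 395 CPM in MN1 CTL + ATRA (-0.23 ± 0.04, adjusted p = 9.37e-06). Cox4i2 (ENSMUSG00000009876.13), the isoform best known from lung, went the other way in every KO comparison. It had 15.3, 16.7 and 16.6 CPM in MN1 KO without ATRA, against 7.96, 8.04 and 6.29 CPM in MN1 CTL (1.12 ± 0.10, adjusted p = 9.54e-11). With ATRA, MN1 KO had 14.3, 17.4 and 16.2 CPM, against 9.59, 8.34 and 10.3 CPM in MN1 CTL (0.74 ± 0.10, adjusted p = 1.47e-07). In H9M it stayed low, with 1.79, 1.52 and 1.68 CPM in KO without ATRA against 0.308, 0.497 and 0.235 CPM in CTL (2.24 ± 0.29, adjusted p = 9.67e-08). KO libraries lay above CTL libraries in each pair, and the gene overlaps Bcl2l1 and Gm32057, so reads of these genes cannot be set apart without the strand counted. Cox6b2 (ENSMUSG00000051811.14), an isoform of subunit 6b best known from testis, had 6.29, 6.41 and 5.24 CPM in MN1 KO without ATRA, against 1.32, 1.32 and 1.21 CPM in MN1 CTL (2.21 ± 0.18, adjusted p = 1.92e-11). With ATRA it had 6.16, 5.90 and 6.49 CPM in MN1 KO, against 1.57, 1.27 and 1.52 CPM in MN1 CTL (2.07 ± 0.17, adjusted p = 3.82e-11). No H9M library exceeded 0.120 CPM. Its common counterpart Cox6b1 fell, at -0.20 and -0.19 in MN1 and at -0.23 and -0.17 in H9M, with and without ATRA.

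The heart and muscle isoforms Cox6a2 and Cox7a1 fell in MN1 KO. Cox6a2 had 0.267, 0.200 and 0.231 CPM in MN1 KO without ATRA, against 3.43, 2.16 and 1.54 CPM in MN1 CTL (-3.31 ± 0.41, adjusted p = 4.95e-08), and it overlaps Itgad. In H9M it had 0, 0.0798 and 0 CPM in KO without ATRA, against 0.501, 0.106 and 0.196 CPM in CTL, too few counts to read a fold from. Cox7a1 had 1.21, 1.49 and 1.84 CPM in MN1 KO + ATRA, against 2.88, 2.84 and 3.39 CPM in MN1 CTL + ATRA (-1.003 ± 0.16, adjusted p = 4.61e-06). In H9M, Cox7a1 had 0.532, 0.555 and 0.432 CPM in KO + ATRA, against 1.25, 1.65 and 1.32 CPM in CTL + ATRA (-1.47 ± 0.25, adjusted p = 9.04e-06). These levels are low, and the groups did not overlap in any of these pairs. The muscle markers summed to 0.623 to 1.18 CPM in the MN1 KO libraries, against at most 0.262 CPM in the MN1 CTL libraries, with the myoglobin gene Mb at 0, and their part in these values was not tested. Cox7a2l, a supercomplex assembly protein related to subunit 7a, had 214, 214 and 211 CPM in H9M KO + ATRA, against 265, 277 and 265 CPM in H9M CTL + ATRA (-0.34 ± 0.03, adjusted p = 1.3e-09). In MN1 KO without ATRA it was at 0.03 ± 0.03 and was not called (adjusted p = 0.486). With ATRA in MN1 it was called at -0.08, and with RLE scaling the value was -0.05 (adjusted p = 0.23). Cox6a1 and Cox8a fell in both MN1 KO comparisons, at -0.18 and -0.18 with ATRA, and were not called in H9M. Cox7a2 fell, at -0.15 and -0.18 in MN1 with and without ATRA and at -0.12 in H9M with ATRA. Cox7b fell in H9M KO with ATRA alone (-0.10, adjusted p = 0.0374), and with RLE scaling its adjusted p was 0.0627.

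**Figure D3:**
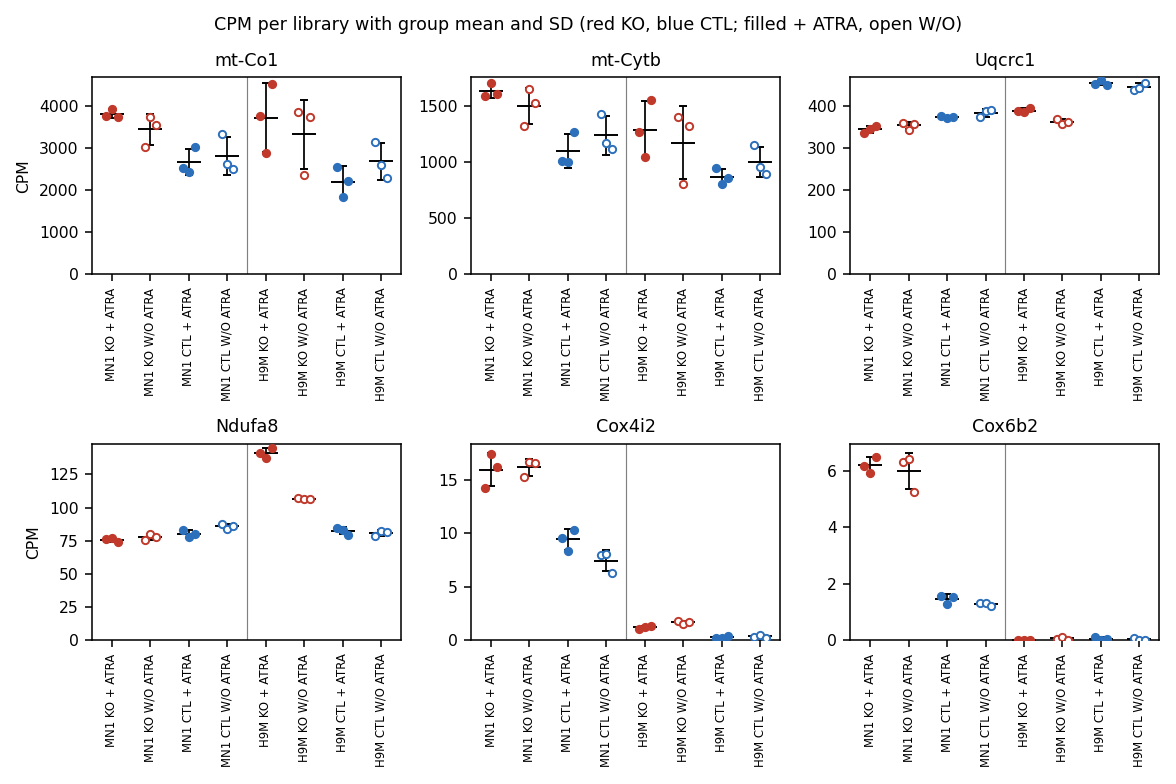
CPM per library of 6 genes in the 8 groups, with group mean and SD (n = 3). The mt-encoded pair mt-Co1 and mt-Cytb is higher in KO + ATRA than in CTL + ATRA, Uqcrc1 is lower in KO, Ndufa8 stands out in H9M KO, and Cox4i2 and Cox6b2 are higher in MN1 KO than in MN1 CTL.

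Complex V makes ATP from the proton gradient. Of its 16 nuclear genes, 13 fell in MN1 KO with ATRA and 12 without, and in H9M KO 11 fell with ATRA and 3 fell and 1 rose without. The shares that fell were 81.2% and 75% in MN1 and 68.8% in H9M with ATRA, above those of all genes (28.6%, 26.3% and 24.4%), and 18.8% in H9M without ATRA, below that of all genes (25.4%). Atp5a1 and Atp5b, the subunits of the catalytic head, fell in all 4 and are given as examples chosen after their values were seen. Atp5b had 1958, 2027 and 2030.4 CPM in MN1 KO + ATRA, against 2293, 2306 and 2310.5 CPM in MN1 CTL + ATRA (-0.22 ± 0.03, adjusted p = 2.03e-08). Atp5a1 had 1251, 1215 and 1242 CPM in H9M KO + ATRA, against 1433, 1448 and 1426 CPM in H9M CTL + ATRA (-0.22 ± 0.02, adjusted p = 2.68e-09). The groups did not overlap in either pair. The 3 genes for the same c-ring protein differed. Atp5g3 (ENSMUSG00000018770.9) had 285, 298 and 304 CPM in MN1 KO without ATRA, against 381, 377 and 373 CPM in MN1 CTL (-0.36 ± 0.04, adjusted p = 5.37e-10), and was at -0.0072 ± 0.04 in H9M KO without ATRA, not called (adjusted p = 0.902). Atp5g1 fell in all 4, at -0.17 and -0.16 in MN1 and -0.12 and -0.10 in H9M, with and without ATRA. Atp5g2 was called in none, with values of -0.08 to -0.0057. Atp5s, a regulatory factor of the synthase kept by the rule, fell in H9M KO without ATRA, with 3.62, 3.43 and 3.44 CPM in KO against 6.75, 4.72 and 5.22 CPM in CTL (-0.65 ± 0.14, adjusted p = 0.000188).

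Most of the abundant mt-encoded genes rose in KO with ATRA. In H9M KO with ATRA 9 of 13 mt-encoded genes were called higher (69.2%, where 26.7% of all genes were), and in MN1 KO with ATRA 8 of 13 (61.5%, where 28.6% of all genes were). Of these, 2 in H9M and 3 in MN1 are among 6 genes with almost no counts, described below, which leaves 7 of 7 abundant genes in H9M and 5 of 7 in MN1. The abundant genes are cut from shared long transcripts and mostly vary together between libraries, as given below. Their counts are therefore not that many separate observations, and the share of all genes is no measure of their weight. In neither model was an mt-encoded gene called lower, with none lower at an unadjusted p under 0.05 in edgeR's test and none in DESeq2. In MN1 KO without ATRA 2 were called higher, mt-Atp6 and mt-Nd3, both among those 6, with 3 at an unadjusted p under 0.05 and 0 in DESeq2. In H9M KO without ATRA none was called, with 2 at an unadjusted p under 0.05 and 0 in DESeq2. Per kilobase, 7 of the genes were abundant, with medians of 261 CPM per kb for mt-Nd4 to 1960 CPM per kb for mt-Co1 over the 24 libraries. Their median log2 fold change was 0.68 in H9M and 0.48 in MN1 KO with ATRA, and 0.27 in both models without. The difference between the KO effect with and without ATRA was itself called for no mt-encoded gene in either model (unadjusted p under 0.05 for 2 in H9M and 0 in MN1, and 0 in DESeq2), so the effect of the knockout was not shown to depend on ATRA in that fit. These calls turn on the filter on low counts: with no filter, 8 mt-encoded genes rose in each model in KO without ATRA, and the difference was called for 8 in H9M and 7 in MN1.

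mt-Co1 (ENSMUSG00000064351.1), the catalytic subunit of complex IV, had 3762, 2879.7 and 4532 CPM in H9M KO + ATRA, against 2554, 1836 and 2222 CPM in H9M CTL + ATRA (0.76 ± 0.15, adjusted p = 8.31e-05). In MN1 KO + ATRA it had 3778, 3941 and 3746 CPM, against 2538, 2437 and 3019.9 CPM in MN1 CTL + ATRA (0.50 ± 0.15, adjusted p = 0.00502). Without ATRA, MN1 KO had 3036, 3752 and 3560.2 CPM, against 3340.2, 2625 and 2503 CPM in MN1 CTL (0.28 ± 0.15, adjusted p = 0.108). In H9M without ATRA it had 3873, 2371 and 3735 CPM in KO, against 3151, 2599.8 and 2297 CPM in CTL (0.32 ± 0.15, adjusted p = 0.0693). The groups overlapped only without ATRA, and there neither model was called. mt-Cytb, the cytochrome b of complex III, had 1590.5, 1709 and 1605 CPM in MN1 KO + ATRA, against 1012, 1003 and 1270.3 CPM in MN1 CTL + ATRA (0.56 ± 0.14, adjusted p = 0.00123). In H9M KO + ATRA it had 1269, 1047 and 1552 CPM, against 946, 802 and 856 CPM in H9M CTL + ATRA (0.57 ± 0.14, adjusted p = 0.00115). Of the membrane subunits of complex I, mt-Nd4, mt-Nd5 and mt-Nd6 rose in KO with ATRA in H9M (0.71, 0.66 and 0.71) and in MN1 (0.47, 0.48 and 0.57). mt-Nd1 and mt-Nd2 rose there in H9M (0.68 and 0.60), where their groups overlapped, and were at 0.27 and 0.18 in MN1, not called (adjusted p = 0.223 and 0.378). Standard errors of the abundant mt-encoded genes were 0.14 to 0.19, against a median of 0.04 for nuclear genes of at least 5 CPM.

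In most groups the abundant mt-encoded genes shared their lowest library. In H9M KO W/O ATRA, all 7 abundant genes were lowest in library 2, and the highest library exceeded it by 1.44 to 1.75 times. All 7 were also lowest in library 2 of H9M KO + ATRA and of H9M CTL + ATRA, in library 3 of H9M CTL W/O ATRA and in library 1 of MN1 KO W/O ATRA. In MN1 CTL + ATRA 6 of 7 were lowest in library 2. In MN1 CTL W/O ATRA 4 of 7 were lowest in library 3 and the others in library 2, though all 7 were highest in library 1. In MN1 KO + ATRA 4 of 7 were lowest in library 3, and the libraries lay within 1.05 to 1.12 times of each other. Without H9M KO W/O ATRA library 2, 5 mt-encoded genes rose in H9M KO without ATRA in place of none, 5 without H9M CTL W/O ATRA library 1, and 2 without H9M KO + ATRA library 2 or MN1 CTL W/O ATRA library 1. Without MN1 CTL W/O ATRA library 1, 7 rose in MN1 KO without ATRA in place of 2. That count was 4 without MN1 KO W/O ATRA library 1 or H9M CTL W/O ATRA library 1, 0 without MN1 KO W/O ATRA library 2 or MN1 CTL W/O ATRA library 2 or 3, and 1 without any one of 10 other libraries, of either model. The mitochondrial ribosomal RNAs, which are no subunits and were added after their values were seen, did not follow. mt-Rnr1 had 83.9, 89.1 and 81.8 CPM in MN1 KO + ATRA, against 127, 129 and 148 CPM in MN1 CTL + ATRA (-0.69 ± 0.13, adjusted p = 4.32e-05), and in H9M KO + ATRA it was at 0.24 ± 0.14, not called (adjusted p = 0.148). mt-Rnr2 was at -0.60 ± 0.15 in MN1 KO with ATRA (adjusted p = 0.00114) and 0.05 ± 0.16 in H9M KO with ATRA (adjusted p = 0.836). In MN1 KO with ATRA both ribosomal RNAs fell, while 5 of the 7 abundant subunit genes rose and the other 2 were not called. The 2 ribosomal RNAs together took only 0.023% of counts in MN1 KO + ATRA and 0.034% in MN1 CTL + ATRA, as group means. The mt-encoded subunit genes took 0.823% and 0.589% there. How far so few counts follow the levels of the ribosomal RNAs in the cells was not tested.

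The other 6 mt-encoded genes, mt-Co2, mt-Atp8, mt-Atp6, mt-Co3, mt-Nd3 and mt-Nd4l, lie next to each other on the mitochondrial genome and had almost no counts. Their medians were 0.502 CPM per kb for mt-Atp8 to 8.18 CPM per kb for mt-Co3, and together they held 0.140% to 0.323% of the mt-encoded counts of a library. This set was chosen after its values were seen. The annotated nuclear gene Gm10925 (chromosome 1, 24613971 to 24614651 on GRCm38.p6) bears mt-Atp6 as a synonym and is 681 bases long, as is mt-Atp6. It had 5.42, 3.77 and 2.57 CPM in MN1 KO + ATRA, where mt-Atp6 had 5.14, 3.05 and 2.72 CPM. Whether reads of mt-Atp6 were counted for Gm10925 was not tested, and no copy was looked for in the case of the other 5 genes. With so few counts, the folds of these 6 genes are not read as levels of the messenger RNA. mt-Co2, mt-Co3 and mt-Atp6 were called higher in MN1 KO with ATRA (0.78, 0.99 and 1.31). mt-Co2 and mt-Atp6 were called higher in H9M KO with ATRA (0.65 and 1.2), and mt-Co3 was at 0.59 there (adjusted p = 0.0581). mt-Nd3 had 0.343, 0.641 and 0.501 CPM in MN1 KO without ATRA, against 0.189, 0.291 and 0.229 CPM in MN1 CTL (adjusted p = 0.0499). mt-Atp8 was at 0.0734, 0 and 0 CPM in H9M CTL + ATRA, against 1.04, 0.106 and 0.0785 CPM in H9M CTL W/O ATRA (adjusted p = 0.0175). mt-Nd4l was called in none of the 12 comparisons.

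**Figure D4:**
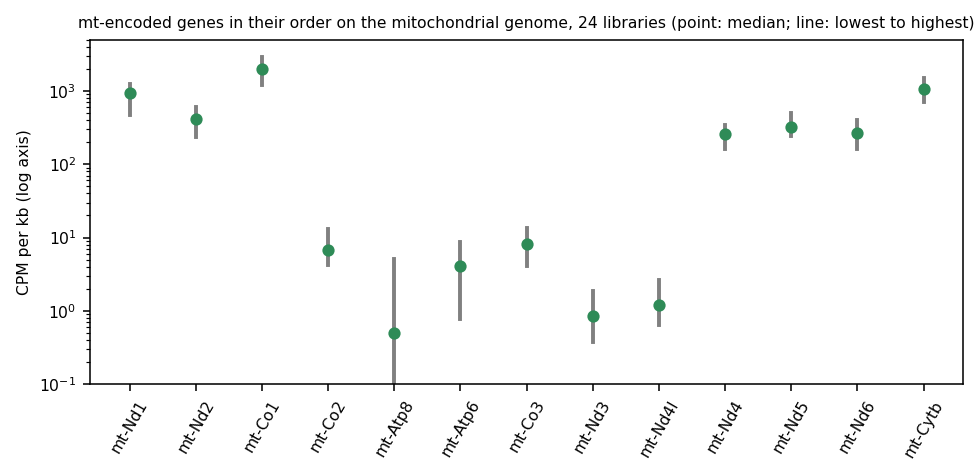
CPM per kilobase (log axis) of the 13 mt-encoded genes, ordered as on the mitochondrial genome, with the median of 24 libraries as a point and the lowest to highest library as a line (lines are cut at 0.1, below which some mt-Atp8 libraries lie at 0). The 6 adjacent genes mt-Co2 to mt-Nd4l lie at medians of 0.502 to 8.18, the other 7 at 261 to 1960.

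The knockout acted differently on some nuclear genes in the models. The difference of the KO effect without ATRA, MN1 minus H9M, was called for 17 nuclear genes, 15 lower (18.5%, where 14.2% of all genes were called lower) and 2 higher (2.47%, where 14.2% of all genes were called higher), and for no mt-encoded gene in edgeR or DESeq2, with none at an unadjusted p under 0.05. Ndufa8 had the smallest adjusted p and differed by -0.57 ± 0.05 (adjusted p = 5.95e-10), falling in MN1 and rising in H9M. Atp5g3 differed by -0.35 ± 0.05 (adjusted p = 1.9e-06), with effects of -0.36 in MN1 and -0.0072 in H9M. Sdhb differed by -0.34 ± 0.05 (adjusted p = 6.57e-06), with effects of -0.06 in MN1 and 0.28 in H9M. The 2 higher differences were Cox7a2l, 0.27 ± 0.05 (adjusted p = 5.8e-05), and Uqcrc1, 0.16 ± 0.04 (adjusted p = 0.00459), from a decrease in H9M that was larger than the change in MN1. The median difference of the nuclear genes was -0.08.

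**Figure D5:**
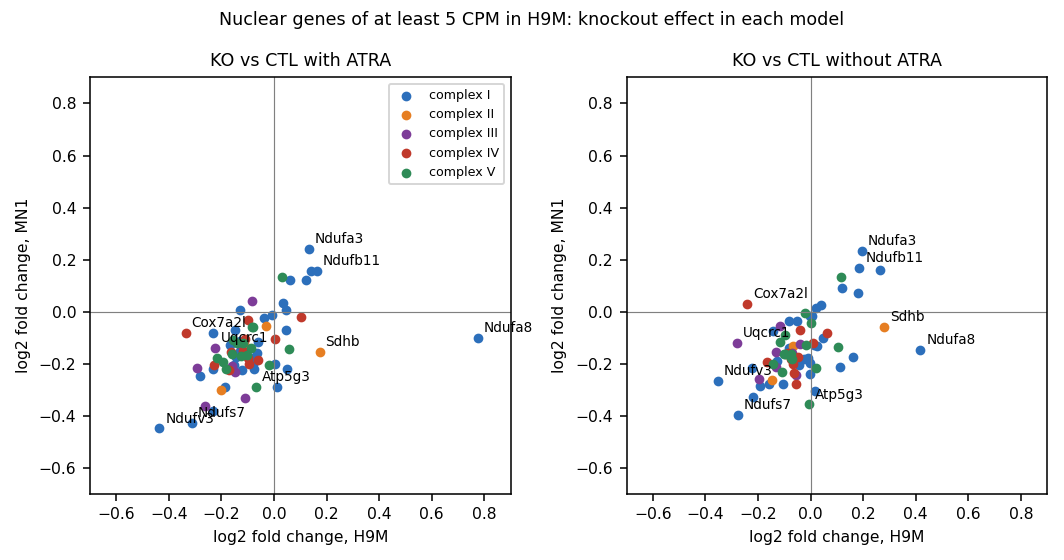
Log2 fold change, KO over CTL, in MN1 (vertical) against H9M (horizontal), for nuclear genes of at least 5 CPM in H9M, coloured by complex. The left panel is with ATRA and the right without. Most points lie below 0 on both axes, and Ndufa8 lies farthest to the right and below 0 in both panels.

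The effect of ATRA was compared within CTL and within KO. In MN1 CTL, MN1 KO and H9M KO most nuclear genes called with ATRA fell, while few were called in H9M CTL. In MN1 CTL, 21 nuclear genes fell and 2 rose with ATRA, where 10.4% of all genes were called lower and 11.4% higher. In MN1 KO, 14 fell and none rose (none at an unadjusted p under 0.05 and none in DESeq2), where 10.4% were called lower and 8.42% higher. In H9M KO, 23 fell and 3 rose, where 15.4% were called lower and 13.9% higher. In H9M CTL, 3 fell and 1 rose, where 12.3% were called lower and 12.9% higher. The shares of nuclear genes that fell were 25.9% in MN1 CTL, 17.3% in MN1 KO and 28.4% in H9M KO, above those of all genes. In H9M CTL 3.7% fell and 1.23% rose, below those of all genes, which is no result about these genes. The medians were -0.07 in MN1 CTL, -0.07 in MN1 KO, -0.08 in H9M KO and -0.01 in H9M CTL. Medians over all genes were 0, -0.0163, -0.0108 and -0.0019 in the same order. No mt-encoded gene was called with ATRA except mt-Atp8 in H9M CTL (lower in DESeq2: 0), and at an unadjusted p under 0.05 there were 4 in H9M CTL, 1 in MN1 CTL, 1 in MN1 KO and 0 in H9M KO, all lower. With no filter on low counts 10 fell in H9M CTL and 8 in MN1 CTL, 5 rose in H9M KO, and 2 rose and 3 fell in MN1 KO. The abundant mt-encoded genes had medians of -0.19 in MN1 CTL and -0.28 in H9M CTL, and 0.07 in MN1 KO and 0.11 in H9M KO. Several of these counts rest on single libraries. The 21 of MN1 CTL was 8 without MN1 CTL W/O ATRA library 1, 11 without its library 3, and 11 and 9 without MN1 CTL + ATRA libraries 1 and 2. The 23 of H9M KO was 8 and 13 without H9M KO + ATRA libraries 2 and 3, and 12 and 15 without H9M KO W/O ATRA libraries 1 and 3. The 14 of MN1 KO was 7 without MN1 KO + ATRA library 1, 8 without MN1 KO W/O ATRA library 2 or 3, and 9 without MN1 CTL W/O ATRA library 1. In H9M CTL the 3 that fell were 7 without H9M CTL + ATRA library 2, and the 1 mt-encoded gene was 0 without H9M CTL + ATRA library 2 or 3 or H9M CTL W/O ATRA library 1, 3 without H9M CTL + ATRA library 1 and 4 without H9M CTL W/O ATRA library 3.

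Ndufb3, an accessory subunit of complex I, was the gene that fell most with ATRA in H9M KO, with 31.5, 30.2 and 29.9 CPM in KO + ATRA against 38.6, 39.1 and 41.0 CPM in KO W/O ATRA (-0.35 ± 0.05, adjusted p = 3.01e-06). It also fell in H9M CTL (-0.18 ± 0.05, adjusted p = 0.0103), as did Ndufb6 (-0.19) and Ndufs1 (-0.14). In H9M KO, Cox7c fell, at -0.22, Ndufs1 at -0.20 and Ndufa10 at -0.19. Ndufc2 fell with ATRA in both MN1 backgrounds, at -0.22 in KO and -0.21 in CTL. Ndufa12, Cox5a and Ndufa10 fell in MN1 CTL at -0.21, -0.20 and -0.18, and Atp5c1, Sdhd and Atp5g1 fell in MN1 KO at -0.16, -0.15 and -0.14. Cox4i2 and Ndufv3 rose with ATRA in MN1 CTL (0.32 and 0.26), and Cox7a2l rose in H9M CTL (0.12). Ndufa8 rose with ATRA in H9M KO (0.43 ± 0.04, adjusted p = 7.33e-11) and was at 0.07 in H9M CTL (adjusted p = 0.202). It was the only nuclear gene whose interaction of knockout and ATRA was called in H9M (0.36 ± 0.05, adjusted p = 2.21e-05), where 2.25% of all genes were called higher and 2.79% lower. None was called lower there in edgeR, with 7 at an unadjusted p under 0.05 and 2 in DESeq2. In MN1 no interaction was called, with 6 nuclear genes at an unadjusted p under 0.05 and 0 in DESeq2, where 1.09% of all genes were called higher and 1.68% lower. H9M KO + ATRA is also the KO group with the most Kdm1a, and the part of that in the Ndufa8 interaction was not tested. The ATRA effect in CTL differed between MN1 and H9M for 3 nuclear genes, Ndufa8 (-0.19), Uqcrc1 (-0.13) and Atp5c1 (-0.13), where 7.15% of all genes were called lower and 6.64% higher. That count of 3 was 1 without H9M CTL + ATRA library 1 or 2, H9M CTL W/O ATRA library 1 or 2, MN1 CTL + ATRA library 2, or MN1 CTL W/O ATRA library 2 or 3.

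Other mitochondrial genes were counted in 5 lists, to be read against the shares of all genes that fell in MN1 KO with and without ATRA (28.6% and 26.3%) and in H9M KO with and without ATRA (24.4% and 25.4%), and that rose (28.6%, 28.7%, 26.7% and 26.1%). The lists were chosen with earlier results of these data known, so their shares are a description. Of 20 genes of import, channels and chaperones, 19 fell in MN1 KO with ATRA, 20 without, 18 in H9M KO with ATRA and 19 without, or 90% to 100% of the list. Their medians were -0.26, -0.25, -0.24 and -0.21. Lonp1, a protease of the matrix, fell, at -0.83, -0.71, -0.75 and -0.61 in the same order, and Phb2, a prohibitin of the inner membrane, at -0.42, -0.42, -0.51 and -0.46. Of 18 genes of the TCA cycle and pyruvate dehydrogenase, 13 and 12 fell in MN1 KO with and without ATRA and 15 and 12 in H9M KO with and without ATRA, with 1 higher in each H9M comparison, so that 66.7% to 83.3% of the list fell. Idh2, the mitochondrial isocitrate dehydrogenase that uses NADP, fell, at -0.30, -0.24, -0.24 and -0.23. Of 46 tested assembly factors, 20 fell in each MN1 comparison, with 5 and 4 higher with and without ATRA, and 15 and 16 fell in H9M with and without ATRA, with 8 and 4 higher. These decreases are 43.5% of the list in MN1 and 32.6% and 34.8% in H9M, the H9M shares not far above those of all genes. Uqcc1, a complex III assembly factor, fell, at -0.36 and -0.38 in H9M with and without ATRA. Of 20 electron carriers and exchange genes, 9 and 13 fell in MN1 KO with and without ATRA and 7 and 10 in H9M, or 45%, 65%, 35% and 50%, while 1 and 3 rose in MN1 and 3 and 3 in H9M, or 5% to 15%. Slc25a4, an ADP/ATP carrier, rose in all 4, at 0.27, 0.30, 0.32 and 0.41.

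Of 38 matched genes for mitochondrial DNA expression and biogenesis, 17 and 19 fell in MN1 KO with and without ATRA and 12 and 17 in H9M KO, while 5 and 3 rose in MN1 and 5 and 8 in H9M. The shares that fell were 44.7%, 50%, 31.6% and 44.7%, and the 31.6% of H9M with ATRA is not far above the 24.4% of all genes. Tfam, which packages mitochondrial DNA and starts its transcription, had 70.2, 64.0 and 67.1 CPM in MN1 KO + ATRA, against 85.6, 78.1 and 83.9 CPM in MN1 CTL + ATRA (-0.32 ± 0.04, adjusted p = 1.36e-07). It had 51.6, 50.2 and 49.8 CPM in H9M KO + ATRA, against 62.9, 58.0 and 60.4 CPM in H9M CTL + ATRA (-0.26 ± 0.04, adjusted p = 1.55e-05). It also fell without ATRA, at -0.29 in MN1 and -0.25 in H9M (adjusted p = 1.02e-06 and 2.45e-05), and so in all 4 comparisons. Polrmt, the mitochondrial RNA polymerase, was at 0.04 and -0.10 with ATRA in MN1 and H9M, not called (adjusted p = 0.498 and 0.144), and fell in H9M KO without ATRA (-0.25). Lrpprc, which binds and stabilises mitochondrial messenger RNAs, fell, at -0.18, -0.26, -0.32 and -0.26 in MN1 with and without ATRA and H9M with and without ATRA. Polg2, the accessory subunit of the mitochondrial DNA polymerase, rose in all 4 at 1.15, 1.34, 1.68 and 1.58. Of the PGC-1 family, Pprc1 fell in all 4 (-0.29, -0.26, -0.30 and -0.20). Ppargc1b fell in MN1 (-0.78 and -0.81) and in H9M with ATRA (-0.50), and was at 0.05 in H9M without (adjusted p = 0.633). Ppargc1a was at or near 0 in the MN1 libraries, and its KO effect went both ways in H9M. Among cells given ATRA it was lower in KO, with 0.799, 1.03 and 1.58 CPM in H9M KO + ATRA, against 2.24, 2.38 and 2.29 CPM in H9M CTL + ATRA (-0.99 ± 0.27, adjusted p = 0.00319). Among cells without ATRA it was higher in KO, with 0.848, 0.359 and 0.476 CPM in H9M KO, against 0.0771, 0.213 and 0.0393 CPM in H9M CTL (2.25 ± 0.55, adjusted p = 0.00105), from few counts. Compared with untreated cells, it rose with ATRA in H9M CTL (4.33 ± 0.41, adjusted p = 6.56e-09 in edgeR's test). It also rose with ATRA in H9M KO (1.09 ± 0.34, adjusted p = 0.0174 in that test). Nrf1, whose motif is shown above, fell in MN1 (-0.13 and -0.25) and was at -0.03 and -0.08 in H9M, not called (adjusted p = 0.667 and 0.143). Gabpa fell, at -0.16, -0.22 and -0.17 in MN1 with and without ATRA and H9M without, and Esrra was called in none of the 4.

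Over the 8 group means, the level of each nuclear gene was set beside the mean log2 CPM of the 7 abundant mt-encoded genes. Of 75 nuclear genes with a mean of at least 5 CPM, 27 had a Pearson r above 0 and 48 below 0, with a median of -0.17. Ndufb11 was most alike (r = 0.91), followed by Ndufs3 (0.65), Ndufs4 (0.64), Ndufa3 (0.61) and Cox4i2 (0.60). Ndufv3 was least alike (r = -0.87), then Ndufb10 (-0.82), Cox7a2l (-0.82), Uqcrc1 (-0.82) and Ndufa6 (-0.80). The 8 points are groups of 2 models that share their scaling, so these values are a description.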

How the data were processed

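Stranded total RNA of 24 libraries was aligned with STAR 2.5.3 to mm10, and whole-number gene counts were deposited by the authors, per the submitters' processing notes. The sources used here name no tool, annotation or strand for the counting. For the H3K4me2 libraries the deposited lists hold 1 aligned read per line with its mapping quality as a score, made with CASAVA 1.8.2, BWA and bedtools 2.27.0 on GRCm38, per the submitters' processing notes. Samples were grouped by their labels, and all per-sample columns of the count table were used. 12 comparisons were fitted with edgeR 4.0.16 (R 4.3.3, limma 3.58.1): TMM scaling, filterByExpr, 1 quasi-likelihood fit over the 8 groups, and Benjamini-Hochberg adjustment over 14663 genes at a threshold of 0.05. The script was tested on simulated data with the same spread for all genes, each drawn independently. That setting does not cover the wider, shared spread of the mt-encoded genes. CPM were computed on the library total. Reads of mapping quality 10 or more were counted within 1000 bases of each gene start, with Poisson intervals that, like all intervals here, cover counting error only. Alternatives were RLE size factors, mt-encoded genes left out of the library size, no filter, DESeq2 1.42.0, a replicate block, each model alone, each library left out, a narrower promoter window, a mapping quality of 30 and library totals alone, the last chosen after seeing the data.

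The members and lists were chosen with earlier results of these data known. Genes named are the 13 mt-encoded genes, Kdm1a, isoforms by name, the Sdh genes, a set of regulators, per direct comparison up to 4 called nuclear genes each way with the largest change, a mean of at least 5 CPM and no overlap of replicates, per difference up to 3 each way with the smallest adjusted p, per list up to 3 genes, and 5 nuclear genes each way by likeness. Counts and genes called both ways, in all 4 or in none are named as well. Of the listed genes, 1 (Prorp) was not matched. Of the 88 nuclear genes, 86 were matched to RefSeq by symbol and 2 by synonym.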

Additional observations from a re-analysis of the deposited data

Results flagged for a closer look

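The knockout effect without ATRA differed between MN1 and H9M, by a test of the difference itself, for 17 nuclear genes. Of the 81 tested, 18.5% were called lower, not far above the 14.2% of all genes. Called higher were 2.47%, below the 14.2% of all genes, so the count is no result about this set. Of those named, the log2 differences were -0.57 for Ndufa8, -0.35 for Atp5g3, -0.34 for Sdhb, 0.27 for Cox7a2l and 0.16 for Uqcrc1, with adjusted p from edgeR's quasi-likelihood test of 5.95e-10, 1.9e-06, 6.57e-06, 5.8e-05 and 0.00459 in that order. The interaction of knockout and ATRA in H9M was called for 1 nuclear gene, Ndufa8, at 0.36 (adjusted p = 2.21e-05 in edgeR's test). That is 1.23% of the 81 tested, below the 2.25% of all genes called higher. The ATRA effect in CTL cells differed between MN1 and H9M for 3 nuclear genes, Ndufa8 by -0.19, Atp5c1 by -0.13 and Uqcrc1 by -0.13 (adjusted p = 0.0124, 0.0493 and 0.0381 in edgeR's test), and none of these 3 was called with no filter on low counts or with library totals alone. They are 3.7% of the 81 tested, below the 7.15% of all genes called lower.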

How the results depend on the processing

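The direction of the nuclear and mt-encoded medians in the 4 KO comparisons held under each alternative run, while several counts of calls did not, and the cause was not tested. With no filter on low counts, mt-encoded genes called higher were 8 in H9M KO and 8 in MN1 KO without ATRA, 8 and 7 for the interaction in H9M and MN1, 5 for ATRA in H9M KO, 2 in MN1 KO and 1 for the ATRA difference between models. Those called lower were 10 for ATRA in H9M CTL, 8 in MN1 CTL, 3 in MN1 KO and 1 for the KO difference between models. Nuclear genes called with no filter were 0 higher with ATRA in H9M CTL, 15 lower in H9M KO and 0 lower for the ATRA difference. RLE scaling gave 2 higher with ATRA in H9M CTL, 9 lower in MN1 KO, 5 lower for the ATRA difference, and 1 mt-encoded gene higher in H9M KO without ATRA. DESeq2 gave 2 higher and 0 mt-encoded lower with ATRA in H9M CTL, 9 nuclear lower in MN1 KO with ATRA, 2 lower for the H9M interaction, 6 lower for the ATRA difference, and 0 mt-encoded higher in MN1 KO without ATRA. Library totals alone, chosen after seeing the data, gave 0 higher and 13 lower with ATRA in H9M CTL, 10 lower in MN1 CTL, 2 lower in MN1 KO, 2 higher and 0 lower for the ATRA difference, and 1 mt-encoded gene higher in MN1 KO without ATRA. With each model fitted alone, 10 nuclear genes fell with ATRA in H9M KO, 0 mt-encoded in H9M CTL and 2 in MN1 CTL, and 8 mt-encoded rose in MN1 KO without ATRA. Libraries of the same replicate number were not treated as pairs. Correlations of their deviations ran from -0.059 to 0.169, and in no comparison were all of them above the 0.1 set as the threshold. They were weak but all positive in H9M KO with ATRA (0.046 to 0.127) and for ATRA in H9M KO (0.029 to 0.08). With the number as a replicate block 1 mt-encoded gene was called higher in H9M KO without ATRA and mt-Nd2 in MN1 KO without ATRA was at 0.0054. The nuclear share of MN1 CTL W/O ATRA was 1.46% without mt-encoded counts in the total, and the H3K4me2 log2 ratio was -0.14 within 500 bases. Leaving out 1 library at a time, nuclear genes called lower ranged 26 to 44 in H9M KO with ATRA, 2 to 7 for ATRA in H9M CTL, 8 to 29 in H9M KO, 8 to 24 in MN1 CTL, 7 to 19 in MN1 KO, 0 to 1 for the H9M interaction and 1 to 3 for the ATRA difference. Nuclear genes called higher ranged 0 to 2 for ATRA in H9M CTL, 1 to 2 in MN1 CTL, 0 to 1 in MN1 KO and 0 to 2 for the ATRA difference. The mt-encoded genes called higher ranged 0 to 5 in H9M KO and 0 to 7 in MN1 KO without ATRA and 0 to 1 for ATRA in H9M KO, and those called lower 0 to 4 for ATRA in H9M CTL. In the same way the log2 fold change of mt-Nd1 in MN1 KO without ATRA ranged -0.0208 to 0.2609, that of mt-Nd2 there -0.1823 to 0.2068, and that of mt-Nd2 in H9M KO without ATRA -0.0277 to 0.3404. Of the values of single genes under the other alternatives, 965 kept their direction and side of the threshold, 37 lost the call and 23 gained one.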
